A study of Arabidopsis thaliana with 15 samples.

Results

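Histone genes encode the proteins around which nuclear DNA is wrapped. The 45 genes described here were taken from 32314 genes of the 5 nuclear chromosomes in the deposited table. A gene entered if its annotation in the table held the words histone superfamily protein, which gave 32 genes, or a name made of HTA, HTB or HTR and a number, which gave 13 more. Measured values entered only for AT3G53730, which had several rows, of which the row with the largest sum over the libraries was kept. By their known protein class, the 45 held 5 canonical H2A genes, 2 H2A.X, 3 H2A.Z, 3 H2A.W, 9 H2B, 5 H3.1, 3 H3.3, 5 other H3 forms and 7 H4. The last 3 carry a histone fold without being histones: MHF1, a partner of the FANCM helicase, LEC1, a subunit of an embryo transcription factor, and AT5G19490. The H4 gene HIS4 carries another annotation and was not selected. The genes HTB4 and HTB11 were not analysed here.

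A nucleosome core holds H2A, H2B, H3 and H4, and linker histone H1 sits outside it. Canonical H2A, H2B, H4 and the H3.1 form are made mainly while DNA is copied, in dividing cells and in leaf cells that copy their genome without dividing. H3.3 and H2A.Z are also placed into chromatin outside of DNA replication, H3.3 mostly over transcribed genes. H2A.X marks DNA damage once phosphorylated, H2A.W is a form of heterochromatin in plants, and CENH3 replaces H3 at centromeres.

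The RNA came from leaves of Arabidopsis thaliana (accession Col-0) at an age of 21 days. There were 5 groups of 3 libraries, WT and Types I to IV of the mutant ubc22. UBC22 is a ubiquitin-conjugating enzyme, which passes activated ubiquitin on towards target proteins. All mutant plants descended from 1 ubc22 parent and were sorted by leaf shape. Type I looked like WT, Type II had wide and round leaves, Type III had long, narrow and pale leaves, and Type IV was small with serrated leaves. The labels name neither the mutant allele nor the number of plants in a library. They speak of biological replicates without saying how these were grown apart, so a p-value here reflects the variation among libraries, which may be technical. UBC22 itself had 684.7 ± 18.8 normalized reads in WT (SD, n = 3) and means of 261 to 313 in the 4 types. The deposited normalized read counts correspond to 8865955 to 13138977 reads per library. Across groups the leaf markers RBCS1A, CAB2, RCA and RBCS2B were detected, and summed to 42020 to 48040 CPM (read counts scaled to a common library total) in WT, 45360 to 49550 in Type I, 37650 to 44330 in Type II, 40440 to 42830 in Type IV and 33390 to 40940 in Type III. The Type III libraries were thus all below WT. The root markers PLT1, RHD6 and EXPA7 and the sperm cell gene DUO1 were at 0 in all 15 libraries. The remaining root marker COBL9 had reads in WT and Types II and IV, at most 0.113 CPM in a library. The sperm cell and pollen markers (DUO1, HAP2, GEX1 and VGD1) together summed to 1.46 to 3.08 CPM over the libraries. Shoot apex markers (STM, KNAT1, WUS and CLV3) summed to 7.63 to 9.95 CPM in WT and were above that in every library of Types I (10.2 to 11.5), III (10.3 to 13.8) and IV (up to 15.9), with 6.2 to 10.9 in Type II. Flower markers (AP1, AP3, PI and AG) summed to 4.91 to 9.93 CPM in Type III, 3.60 to 7.46 in Type I, 1.24 to 2.37 in WT and at most 2.58 in Types II and IV. The part of these tissues in the results below was not tested. In 3 groups 1 library differed more from its fellows than these did from each other. WT replicate 1 gave a chi-square per degree of freedom of 15.7 and 18.6 with its fellow WT libraries, which gave 3.79 with each other. Type IV replicate 3 gave 15.7 and 19.1, where the remaining Type IV pair gave 6.36, and Type I replicate 3 gave 8.93 and 11.3, where the other pair gave 4.46.

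The sequences upstream of histone genes hold short elements known from plant histone promoters, among them the octamer CGCGGATC and the hexamer ACGTCA. Both were searched on both strands in the 250 bases before each annotated gene start of the TAIR10.1 genome. The octamer was present upstream of 9 of 45 histone genes (20%) and of 37 of 27443 protein-coding genes (0.135%). The hexamer was present upstream of 10 of 45 (22.2%), among them 7 of the 9 H2B genes, against 7.69% of all protein-coding genes. Neither motif contains the other. The nonamer CATCCAACG was found upstream of none of the 45 (0.149% of all genes). The E2F sites TTTCCCGC or TTTGGCGC were found upstream of 2, both H4 genes (0.958% of all genes). A match is a description of these letters and not a mapped binding site.

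The windows are shown for the 5 H3.1 genes, which encode the same protein and did not move alike, and for the 2 H2B genes that were higher in Type III than in WT. Capitals mark the octamer or the hexamer, or the reverse complement of either. The windows lie at chr5:26120582-26120831 (AT5G65360, minus strand), chr1:2972335-2972584 (AT1G09200, minus), chr5:3270958-3271207 (AT5G10400, minus), chr5:3269595-3269844 (AT5G10390, minus), chr3:10129938-10130187 (AT3G27360, minus), chr2:12326558-12326807 (AT2G28720, plus) and chr3:16898014-16898263 (HTB9, minus). Each is written 5′ to 3′ on the strand of its gene. For AT5G10390 the annotated gene start lies upstream of the annotated transcript start, so its window ends further from the transcript.
AT5G65360: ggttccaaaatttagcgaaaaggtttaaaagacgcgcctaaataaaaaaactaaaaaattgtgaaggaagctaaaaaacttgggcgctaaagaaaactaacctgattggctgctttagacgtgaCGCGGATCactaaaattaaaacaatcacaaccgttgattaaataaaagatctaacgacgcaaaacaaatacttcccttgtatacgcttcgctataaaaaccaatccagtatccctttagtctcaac
AT1G09200: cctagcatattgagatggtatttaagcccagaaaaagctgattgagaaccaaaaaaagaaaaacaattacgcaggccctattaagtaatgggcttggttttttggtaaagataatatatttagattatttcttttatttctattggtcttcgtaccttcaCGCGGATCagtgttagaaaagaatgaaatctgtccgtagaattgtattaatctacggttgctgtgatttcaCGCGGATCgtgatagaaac
AT5G10400: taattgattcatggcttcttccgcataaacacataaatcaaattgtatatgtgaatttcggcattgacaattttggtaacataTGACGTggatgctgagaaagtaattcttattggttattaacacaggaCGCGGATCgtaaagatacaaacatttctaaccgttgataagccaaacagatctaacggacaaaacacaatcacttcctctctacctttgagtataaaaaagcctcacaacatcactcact
AT5G10390: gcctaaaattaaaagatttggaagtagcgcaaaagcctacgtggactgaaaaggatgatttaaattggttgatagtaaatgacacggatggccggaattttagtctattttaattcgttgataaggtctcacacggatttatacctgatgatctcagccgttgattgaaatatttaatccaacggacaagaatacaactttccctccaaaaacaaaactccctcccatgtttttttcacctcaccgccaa
AT3G27360: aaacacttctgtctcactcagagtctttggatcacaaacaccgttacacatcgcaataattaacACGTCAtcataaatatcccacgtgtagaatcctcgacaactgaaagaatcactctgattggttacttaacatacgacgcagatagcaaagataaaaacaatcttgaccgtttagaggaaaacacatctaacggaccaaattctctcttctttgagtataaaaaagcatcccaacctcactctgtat
AT2G28720: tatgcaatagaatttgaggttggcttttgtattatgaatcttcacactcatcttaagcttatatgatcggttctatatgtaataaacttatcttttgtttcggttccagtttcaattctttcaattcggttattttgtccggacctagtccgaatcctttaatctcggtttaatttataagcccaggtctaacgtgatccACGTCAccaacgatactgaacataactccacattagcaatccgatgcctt
HTB9: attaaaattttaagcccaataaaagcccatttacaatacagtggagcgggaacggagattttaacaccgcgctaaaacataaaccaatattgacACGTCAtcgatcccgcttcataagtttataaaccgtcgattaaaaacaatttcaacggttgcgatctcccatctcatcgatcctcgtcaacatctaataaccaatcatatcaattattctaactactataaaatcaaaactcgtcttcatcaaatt
Of the H3.1 genes, AT5G65360 and AT5G10400 hold 1 octamer and AT1G09200 holds 2. AT5G10390 and AT3G27360 hold none in this window. The hexamer is present 1 time each in AT5G10400 (on the opposite strand), AT3G27360 and both H2B genes.

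The histone genes that changed were mostly lower than in WT, and Type III had the most of them. Differences were tested with limma on log2(normalized count + 1) over 17595 loci with a mean of at least 10, and a gene was called at a Benjamini-Hochberg adjusted p under 0.05. Fold changes on this scale understate the change of low genes. In a leaf, fewer cells that make a histone and less of its RNA in each cell cannot be told apart. Of the 45 genes, 36 were tested and 9 were too low. In Type III against WT 4 histone genes were higher and 17 lower, where 24% of all tested loci were called higher and 23.6% lower. In Type IV 2 were higher and 13 lower, against 16% and 17% of all loci. Scaled by library totals, 3 were higher and 6 lower there, with no share of all loci given for that fit. Type II had 0 higher and 6 lower, against 10.2% and 4.38%. The median log2 fold change of the 36 genes was -0.27 in Type III, -0.30 in Type IV and -0.24 in Type II, beside -0.01, 0.00 and -0.02 over all loci. In Type I no histone gene was called by limma, edgeR, DESeq2 or limma-voom (limma called 0.0739% of all loci, 0.0455% higher and 0.0284% lower). There 4 of 36 had an unadjusted p under 0.05, against 14.5% of all loci, and 29 of 36 log2 fold changes were below 0 with a median of -0.15. All 4 comparisons share the same 3 WT libraries.

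**Figure D1:**
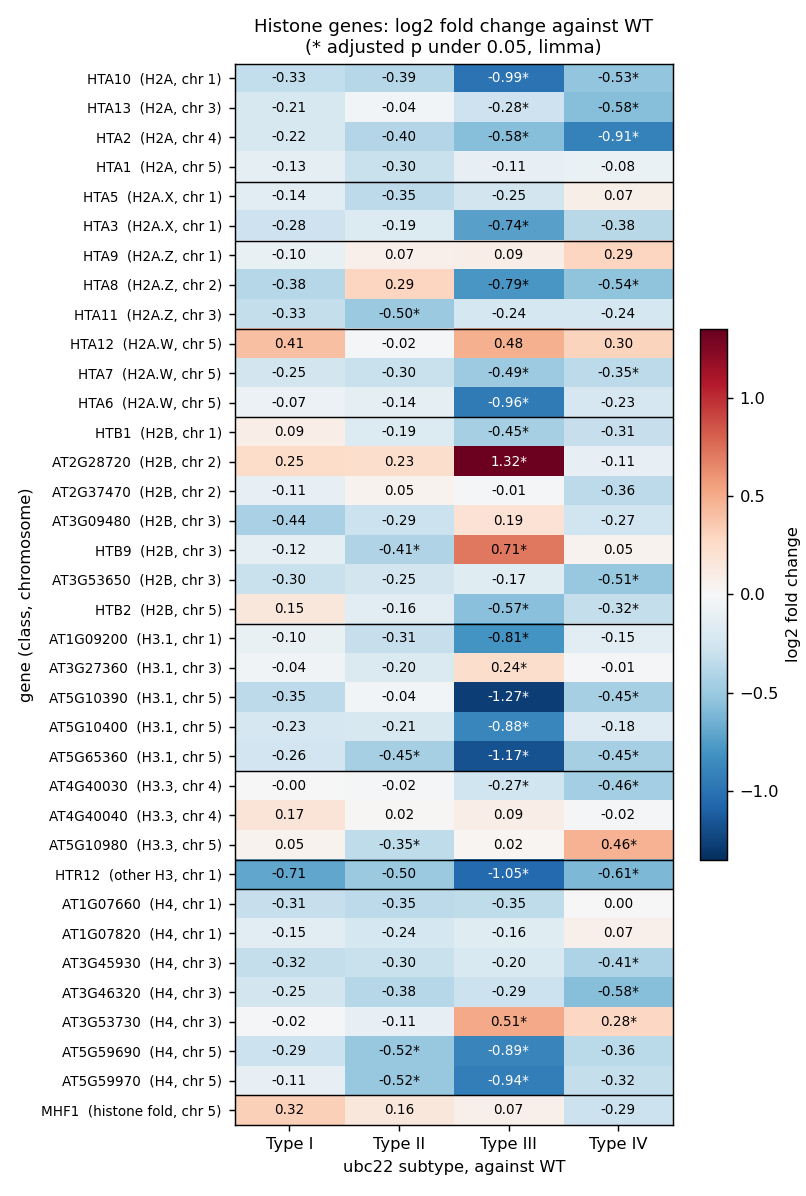
Log2 fold change of the 36 tested histone genes in each ubc22 type against WT (color and printed value, 3 libraries a group), ordered by class, with asterisks at adjusted p under 0.05. Type III has 21 asterisks, 17 of them on negative values, and Type I has none.

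Across the 4 comparisons 26 of the 36 genes were called at least once, where 64.5% of all tested loci were, and 15 at least 2 times, where 26.8% were. Only AT5G65360 (H3.1) was called in 3, 14 genes were called in 2, 11 in 1 and 10 in none. Both genes called in opposite directions were abundant: HTB9 (H2B) was lower in Type II and higher in Type III, and AT5G10980 (H3.3) was lower in Type II and higher in Type IV. The number of Type II calls depended on single libraries. It was 11 when WT replicate 1 was left out, 1 when WT replicate 2 was, 2 when WT replicate 3 was, and 3 when Type II replicate 2 or 3 was. Only AT5G10980 stayed called in Type II in all 6 of these fits. For Type IV the count was 6 when Type IV replicate 1 was left out, 8 for Type IV replicate 2 or WT replicate 3 and 9 for WT replicate 2. DESeq2 called 1 higher and 10 lower in Type IV, without HTR12, HTA8, AT3G53650, AT3G53730 and AT5G10390 of the genes below. In Type III leaving out 1 library gave 18 to 25 calls. For the fits without 1 library and with DESeq2 no share of all loci is given beside these counts.

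Among the genes for H3.1, the form deposited during DNA replication, 4 of 5 were lower in Type III and the fifth was higher. That is 80% lower and 20% higher, beside 23.6% and 24% of all loci. The 5 genes encode identical proteins (100% identity over 136 residues in the reference) and each has a single exon. They lie on chromosomes 1, 3 and 5. AT5G65360 (chromosome 5) had normalized read counts of 579, 685 and 646 in the 3 WT libraries, 583, 570.0 and 451 in those of Type I, 489, 452 and 453 for Type II, 316, 289.7 and 243 for Type III and 408, 447 and 553 for Type IV. Every library of Types II, III and IV was below every WT library, and Type III was lowest. Its log2 fold change (± SE) was -1.17 ± 0.13, adjusted p = 6.47e-06, in Type III. It was -0.45 ± 0.13, adjusted p = 0.0333, in Type II, a call lost in every leave-out except that of WT replicate 1 (highest adjusted p = 0.118). In Type IV it was -0.45 ± 0.13, adjusted p = 0.0179, lost without Type IV replicate 1 or 2 or WT replicate 2 or 3 (highest adjusted p = 0.09).

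AT5G10390, also on chromosome 5, had 177, 141 and 154 normalized reads in WT and 79.4, 58.1 and 58.1 in Type III. All Type III libraries lay below all others of the 15. Its mean fell to 41.5% of WT in Type III (-1.27 ± 0.16, adjusted p = 2.02e-05) and to a smaller extent in Type IV (-0.45 ± 0.16, adjusted p = 0.045; lost without Type IV replicate 1 or 2 or WT replicate 1 or 3, highest adjusted p = 0.189). AT5G10400, which lies next to it on the same strand, had 358, 406 and 388 in WT and 224, 195 and 204 in Type III (-0.88 ± 0.11, adjusted p = 1.8e-05). AT1G09200 on chromosome 1 had 439.7, 579 and 516 in WT and 297, 280.3 and 291 in Type III (-0.81 ± 0.13, adjusted p = 0.000187). For both genes the Type III libraries were again below the rest. In Type IV neither AT5G10400 nor AT1G09200 passed the test (log2 fold changes -0.18 and -0.15).

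AT3G27360, the most abundant H3.1 gene and the only one on chromosome 3, moved the other way in Type III. Its values were 782, 781 and 776 in WT and 915, 944 and 898 in Type III, so the 3 Type III libraries lay above the WT libraries, which agreed closely. The rise was 0.24 ± 0.07, adjusted p = 0.0142. The direction turned when each library was centred on the median of its chromosome (log2 fold change -0.24, adjusted p = 0.0147), and the call was lost when scaling by library totals and without Type III replicate 2 (adjusted p = 0.0516). AT3G27360 overlaps 1 gene on the same strand, so reads from the overlap may not all be its own. AT3G27360 made up 29.3% ± 1.62 (SD, n = 3) of the summed H3.1 CPM per kilobase of exon in WT. Its share was 49.5% ± 1.93 in Type III and 31.0% to 33.6% on average in the other types.

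**Figure D2:**
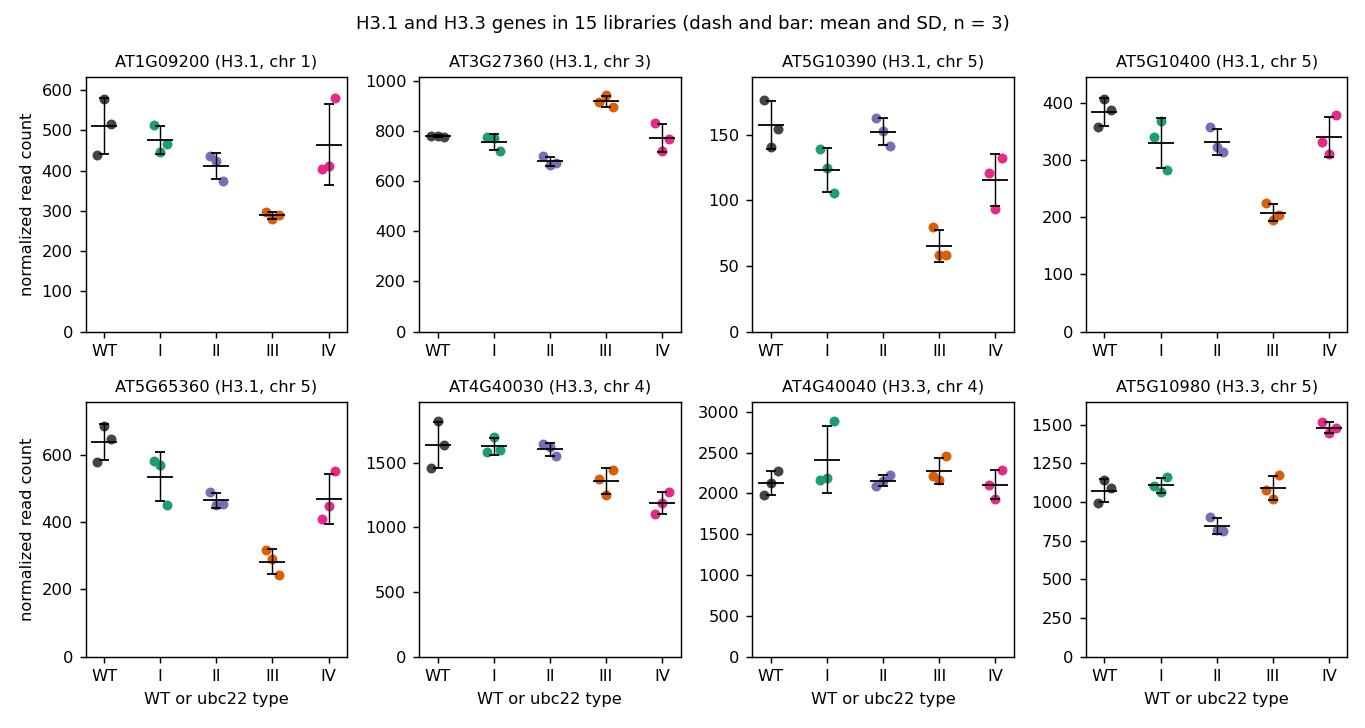
Normalized read count of the 5 H3.1 and 3 H3.3 genes in each of the 15 libraries (points), with the mean and SD of each group (dash and bar, n = 3) and vertical axes from 0. Type III sits lowest for the 4 H3.1 genes of chromosomes 1 and 5 and highest for AT3G27360, and Type IV sits highest for AT5G10980.

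Of the 3 genes for H3.3, the replacement form, 1 was lower in Type III, 1 lower in Type II, and in Type IV 1 was higher and 1 lower. Each such count is 33.3% of the class. Of all loci, 23.6% were called lower in Type III and 4.38% in Type II, and 16% higher and 17% lower in Type IV. The 3 genes were the most abundant H3 genes per exon length in WT, at 115 to 131 CPM per kilobase, and each has introns. AT4G40040, the highest, had 1983, 2131 and 2280 normalized reads in WT and 1930 to 2890 over the mutant libraries, and was called in none of the types. AT4G40030 next to it on chromosome 4 fell in Type IV from 1460, 1819 and 1638 to 1102, 1185 and 1271 (-0.46 ± 0.09, adjusted p = 0.00154). The loci of chromosome 4 had a median of -0.41 in Type IV, and centred per chromosome this gene's change was -0.05 (adjusted p = 0.728). Its smaller fall in Type III (-0.27 ± 0.09, adjusted p = 0.0243) was lost without any of 4 libraries (Type III replicates 1 and 2, WT replicates 2 and 3; highest adjusted p = 0.122).

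AT5G10980, the H3.3 gene on chromosome 5, was called in opposite directions in Types II and IV. It had 990.4, 1140 and 1091 normalized reads in WT, 1100, 1062 and 1159 in those of Type I, 902, 816 and 812 for Type II, 1079, 1017 and 1175 for Type III and 1514, 1447 and 1481 for Type IV. The Type IV libraries lay above all others and the Type II libraries below all others. It rose by 0.46 ± 0.08 in Type IV (adjusted p = 0.000739) and fell by 0.35 ± 0.08 in Type II (adjusted p = 0.0104), both log2 values with SE. Both calls held in every fit that left out 1 library, and centred per chromosome the value was 0.37 in Type IV (adjusted p = 0.00443) and -0.27 in Type II (adjusted p = 0.0838).

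HTR12 (AT1G01370), which encodes CENH3, had few reads, and fewer in Types III and IV. Its counts were 47.9, 53.7 and 55.4 in WT, 38.3, 33.8 and 24.4 in those of Type I, 33.1, 45.5 and 32.3 for Type II, 28.9, 23.4 and 22.4 for Type III and 31.8, 40.5 and 30.3 for Type IV. Every mutant library was below every WT library. The fall passed in Type III (-1.05 ± 0.21, adjusted p = 0.000871) and Type IV (-0.61 ± 0.21, adjusted p = 0.0371). In Type I the log2 fold change was -0.71 ± 0.21 and missed the threshold (adjusted p = 0.169), and the Type IV call was lost without Type IV replicate 1 or 3 or WT replicate 2 or 3 (highest adjusted p = 0.108). The other H3 forms AT1G13370, AT1G75600, AT5G12910 and HTR11 were too low to test, with at most 9.24 normalized reads in a library and 0 in all 15 for AT5G12910.

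Of 4 tested canonical H2A genes, 3 were lower in Types III and IV (75% in each, beside 23.6% and 17% of all loci). HTA10 (AT1G51060), the most abundant of them, had 532, 544 and 508 normalized reads in WT, 286, 267 and 242 in Type III and 329, 326 and 452 in Type IV. Both types lay below WT, Type III the further, and Type IV replicate 3 lay above the other Type IV libraries. The change was -0.99 ± 0.13, adjusted p = 1.92e-05 in Type III and -0.53 ± 0.13, adjusted p = 0.00526 in Type IV. HTA10 shares 4.81% of its 50-base exon stretches with HTA13, and reads from those may be split between the 2.

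HTA2 (AT4G27230), on chromosome 4, was the most reduced histone gene of Type IV, at 135, 129.9 and 183 against 235, 314 and 292 in WT. It fell by 0.91 ± 0.14 there (adjusted p = 0.000354) and by 0.49 when centred per chromosome (adjusted p = 0.0122), and its change in Type III was -0.58 ± 0.14, adjusted p = 0.00404. HTA13 (AT3G20670) had 234, 303 and 274 in WT and 171, 178 and 192 in Type IV (-0.58 ± 0.11, adjusted p = 0.00129). In Type III it was at 221 ± 5.32, a change of -0.28 ± 0.11, adjusted p = 0.0473 that was lost with DESeq2 and in every leave-out except that of WT replicate 1 (highest adjusted p = 0.2). Centred per chromosome, the Type III change of HTA13 was -0.76 (adjusted p = 9.61e-05). HTA13 overlaps 1 gene on the opposite strand. HTA1 (AT5G54640) was called in none of the types, with log2 fold changes of -0.08 to -0.30, and HTA4 had 0 reads in all 15 libraries.

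The damage form H2A.X has 2 genes, of which 1 was called lower, in Type III (50%, beside 23.6% of all loci). HTA5 (AT1G08880), the more abundant, had 367, 486 and 495 normalized reads in WT and 328 to 515 over the mutant libraries and was called in no type. HTA3 (AT1G54690) fell in Type III by 0.74 ± 0.17 (adjusted p = 0.00285), from 177 ± 32.3 to 106 ± 22.1 normalized reads. HTA3 overlaps 2 genes on the opposite strand, whose reads this unstranded library kit does not separate.

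Of the 3 H2A.Z genes, which encode a form found near gene starts, HTA8 was lower in Types III and IV and HTA11 in Type II. That is 33.3% lower in each of these types, beside 23.6%, 17% and 4.38% of all loci in Types III, IV and II. HTA9 (AT1G52740), the main one, had 718, 953 and 962 normalized reads in WT and 1071, 1068 and 1049 in Type IV, where all 3 libraries lay above WT with a log2 fold change of 0.29 that missed the threshold (adjusted p = 0.0557). HTA9 overlaps 1 gene on the opposite strand. HTA8 (AT2G38810) was lower in both types, at 72.5, 96.4 and 91.5 in WT, 47.9, 48.8 and 52.0 in Type III and 66.1, 43.6 and 70.4 in Type IV (-0.79 ± 0.19, adjusted p = 0.00366 and -0.54 ± 0.19, adjusted p = 0.0413). The Type IV call was lost without Type IV replicate 1 or 2 or WT replicate 2 or 3 (highest adjusted p = 0.191). HTA11 (AT3G54560) fell in Type II from 258, 363 and 337 to 246, 224 and 201 (-0.50 ± 0.16, adjusted p = 0.045), a call that every leave-out except that of WT replicate 1 removed (highest adjusted p = 0.17).

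Among the heterochromatin H2A.W genes, HTA6 (AT5G59870) was at 51.3% of its WT mean in Type III. It had 518, 628 and 529.5 normalized reads in WT, 571, 504 and 513 in those of Type I, 515, 519 and 485 for Type II, 284, 271 and 305 for Type III and 449.7, 477 and 499 for Type IV. The Type III libraries were below the other 12. Its log2 fold change was -0.96 ± 0.09, adjusted p = 1.51e-06, in Type III, and -0.23 in Type IV (adjusted p = 0.0682). HTA7 (AT5G27670) fell by 0.49 in Type III and by 0.35 in Type IV (adjusted p = 0.00609 and 0.0487, the latter lost without any library except WT replicate 1), while HTA12 (AT5G02560) was called in no type (0.48 in Type III, adjusted p = 0.0679).

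H2B genes moved in both directions in Type III, with 2 of 7 tested higher and 2 lower (28.6% each, beside 24% and 23.6% of all loci). AT2G28720 on chromosome 2 rose most of the 36 tested genes. Its counts were 131, 158 and 153 in WT, 165, 196 and 165 in those of Type I, 131, 203 and 194 for Type II, 367, 377 and 362 for Type III and 133, 135 and 141 for Type IV. The Type III libraries lay within 362 to 377, above the highest of the other 12 libraries at 203. The rise was 1.32 ± 0.14, adjusted p = 4.36e-06, to 250.3% of the WT mean, and centred per chromosome it was 1.42 (adjusted p = 2.53e-06).

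HTB9 (AT3G45980), the most abundant of the selected H2B genes, lies on chromosome 3. It had 793, 913 and 823 normalized reads in WT, 547, 634 and 733 for Type II, 1474, 1276 and 1394 for Type III and 899, 899.5 and 815 for Type IV. Type II was below and Type III above WT without overlap. The rise in Type III was 0.71 ± 0.10, adjusted p = 5.23e-05, and 0.24 when centred per chromosome (adjusted p = 0.0693). In Type II it fell by 0.41 ± 0.10 (adjusted p = 0.0146), a call lost without Type II replicate 1 or WT replicate 2 (highest adjusted p = 0.0668). HTB9 overlaps 2 genes on the opposite strand and shares 1.92% of its 50-base exon stretches with HTB11.

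HTB2 on chromosome 5 and HTB1 on chromosome 1 were lower in Type III. HTB2 (AT5G22880) fell from 827, 938 and 816 in WT to 651, 545 and 548 in Type III (-0.57 ± 0.11, adjusted p = 0.000527), with no overlap. In Type IV it was at 688 ± 18.3 (SD, n = 3; -0.32 ± 0.11, adjusted p = 0.0319), a call lost without Type IV replicate 1 or 2 or WT replicate 2 (highest adjusted p = 0.127). HTB1 (AT1G07790) fell in Type III by 0.45 ± 0.12 (adjusted p = 0.00747). AT3G53650, a weakly expressed H2B gene, fell in Type IV by 0.51 ± 0.17 (adjusted p = 0.0342), a call lost in all leave-outs except that of Type IV replicate 3 (highest adjusted p = 0.103). AT2G37470 and AT3G09480 were called in no type against WT, and AT1G08170 and AT5G02570 were too low to test.

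The 7 H4 genes encode the same protein (100% identity over 103 residues), so their transcripts can be compared as copies of one product. AT5G59690, the most abundant, had 736, 1083 and 1144 normalized reads in WT, 796, 839 and 745 in those of Type I, 712, 704 and 623 for Type II, 562, 449 and 569.8 for Type III and 739, 828 and 697 for Type IV. WT replicate 1 was the lowest of its group, and all Type II and Type III libraries were below it. It fell by 0.89 ± 0.14 in Type III (adjusted p = 0.000174) and by 0.52 ± 0.14 in Type II (adjusted p = 0.0276, lost without Type II replicate 2 or 3 or WT replicate 2 or 3, highest adjusted p = 0.126). AT5G59970 had 263, 315 and 318 in WT, 203, 202 and 219 in Type II and 163, 141 and 162 in Type III. Its changes were -0.94 ± 0.13, adjusted p = 3.42e-05 in Type III and -0.52 ± 0.13, adjusted p = 0.0138 in Type II, the latter lost without WT replicate 2 or 3 (highest adjusted p = 0.0597). AT5G59690 and AT5G59970 share 8.48% and 6.94% of their 50-base exon stretches, so reads from those may be split between them.

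AT3G53730, an H4 gene on chromosome 3, was the only one higher in Type III. It had 349.6, 469 and 410.3 normalized reads in WT, 594, 547 and 602 in Type III and 521, 451 and 514 in Type IV. Type III lay above WT without overlap, whereas the lowest Type IV library was below the highest WT library. The Type III rise was 0.51 ± 0.10, adjusted p = 0.000956, and 0.04 when centred per chromosome (adjusted p = 0.806). In Type IV the value was 0.28 (adjusted p = 0.0488, lost with edgeR, with DESeq2 and without Type IV replicate 1 or 3 or WT replicate 1 or 3, highest adjusted p = 0.197).

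The H4 genes AT3G46320 and AT3G45930, also on chromosome 3, were called lower in Type IV. AT3G46320 went from 223, 299 and 255 to 162, 166 and 191 (-0.58 ± 0.14, adjusted p = 0.00688), with no overlap. AT3G45930 fell by 0.41 ± 0.13 (adjusted p = 0.0266, lost without Type IV replicate 1 or 2 or WT replicate 2 or 3, highest adjusted p = 0.116). In Type III AT3G46320 and AT3G45930 were at -0.29 and -0.20 and not called (adjusted p = 0.108 and 0.224). Centred per chromosome both were called lower in Type III, at -0.77 and -0.68 (adjusted p = 0.000695 and 0.000938). The 2 share 25.7% and 27.9% of their 50-base exon stretches, so their counts may be mixed. AT1G07660 and AT1G07820, which share 26.75% and 19.38% of their 50-base exon stretches, were called in no type. HIS4 (AT2G28740), the H4 gene outside the selection, fell by 0.54 ± 0.14 in Type III (adjusted p = 0.00522) and by 0.66 ± 0.14 in Type IV (adjusted p = 0.00264).

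MHF1 (AT5G50930), the tested gene with a histone fold that is no histone, had 32.7, 26.4 and 28.9 normalized reads in WT and 21.5 to 50 over the mutant libraries. It was called in no type. LEC1 had at most 0.938 normalized reads in a library, and AT5G19490 had 3.61 to 15.7 normalized reads in a library and was not tested.

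Of the 4 histone genes higher in Type III, 3 lie on chromosome 3. Over all tested loci the median log2 fold change in Type III was 0.48 on chromosome 3 and -0.10 to -0.12 on the others, and 56.6% of chromosome 3 loci were called higher. Of 9 histone genes tested on chromosome 3, 3 were higher (HTB9, AT3G53730 and AT3G27360) and 1 lower (HTA13), with a median of -0.17. Of 27 on the other chromosomes 1 was higher (AT2G28720) and 16 lower (59.3%, against 28.1% of all loci there), with a median of -0.49 beside -0.11. With every library centred per chromosome, 2 histone genes were higher (AT2G28720 and HTA12) and 21 lower, against 20.6% and 21.6% of all loci, and 18 genes were called in both fits. AT3G27360 was then among the lower ones. Called only when centred were 5 genes, HTA12 and the lower chromosome 3 genes HTA11, AT3G53650, AT3G46320 and AT3G45930. HTA11 was at -0.72 and AT3G53650 at -0.64 in that fit (adjusted p = 0.0024 and 0.00819). The part of the chromosome-wide shift in each gene's value was not tested.

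Other types had shifted chromosomes as well. In Type II the loci of chromosome 2 had a median of 0.50 and 51.4% were called higher, and the 3 histone genes there (AT2G28720, AT2G37470 and HTA8) had log2 fold changes of 0.05 to 0.29, none called. In Type IV the loci of chromosome 4 had a median of -0.41 and 48.9% were called lower, and 2 of the 3 histone genes there were lower (HTA2 and AT4G40030). The other 33 gave 2 higher and 11 lower in Type IV (6.06% and 33.3%, against 18.3% and 11.4% of all loci there), with a median of -0.29 beside 0.06 for all loci outside chromosome 4. Centred per chromosome, limma called 0 histone genes in Type II (1.93% of all loci higher and 0.887% lower), where 12 of 36 had an unadjusted p under 0.05 and the median was -0.22. Type IV then had 2 higher (AT5G10980 and AT4G40040) and 15 lower, against 13.3% and 13.2% of all loci, and 12 genes were called in both fits.

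**Figure D3:**
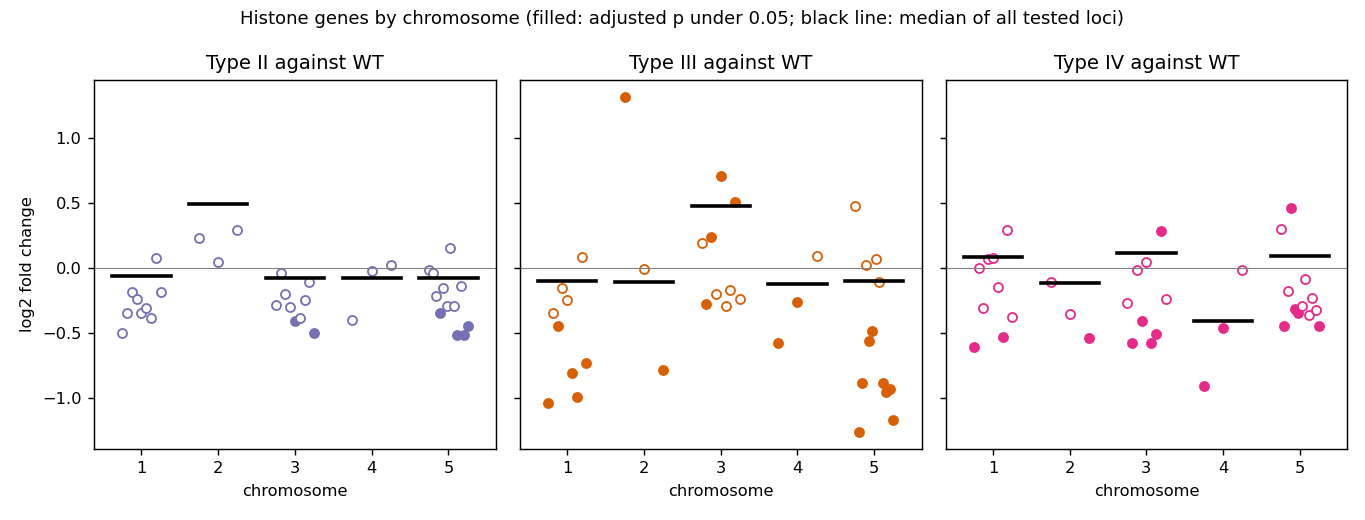
Log2 fold change of each tested histone gene by chromosome in Types II, III and IV against WT (points, filled at adjusted p under 0.05), with the median of all tested loci of the chromosome (black line). In Type III the line of chromosome 3 stands at 0.48 and most histone genes of the other chromosomes lie below theirs.

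Summed over each class by CPM, every class except H2B and H2A.Z had its lowest mean in Type III. With the deposited scaling H3.3 and H4 were instead lowest in Type II. H3.3 was then at 95.1% of WT in Type II and 97.5% in Type III. H3.1 reads went from 229.9 ± 5.72 CPM in WT to 155 ± 12.1 in Type III (67.3%), canonical H2A from 118 ± 4.84 to 74.1 ± 6.76 (63%), H2A.W from 88.4 ± 6.96 to 52.8 ± 0.917 (59.7%) and H4 from 271.5 ± 33.6 to 202.4 ± 11.1 (74.5%). H2A.X went from 58.2 ± 7.89 to 42.2 ± 4.36 (72.4%). In each of these the 3 Type III libraries lay below the 3 WT libraries. H3.3 was at 413 ± 10.7 CPM against 450.9 ± 19.9 (91.7%), H2A.Z at 91.3% and H2B at 109%. The H2B level turned to 85.7% of WT without HTB9, its most abundant selected gene. In Type IV canonical H2A was at 71.1% of WT and H3.1 at 90.1%, with Type IV replicate 3 at 235.9 CPM for H3.1 above the other Type IV libraries (184.8 and 200.8). In Type I the classes lay between 80.5% (canonical H2A) and 101% (H3.3), and in Type II between 79.6% (H4) and 100.3% (H2A.Z). These class sums cover the selected genes, without HIS4, HTB4 and HTB11, and carry no test.

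**Figure D4:**
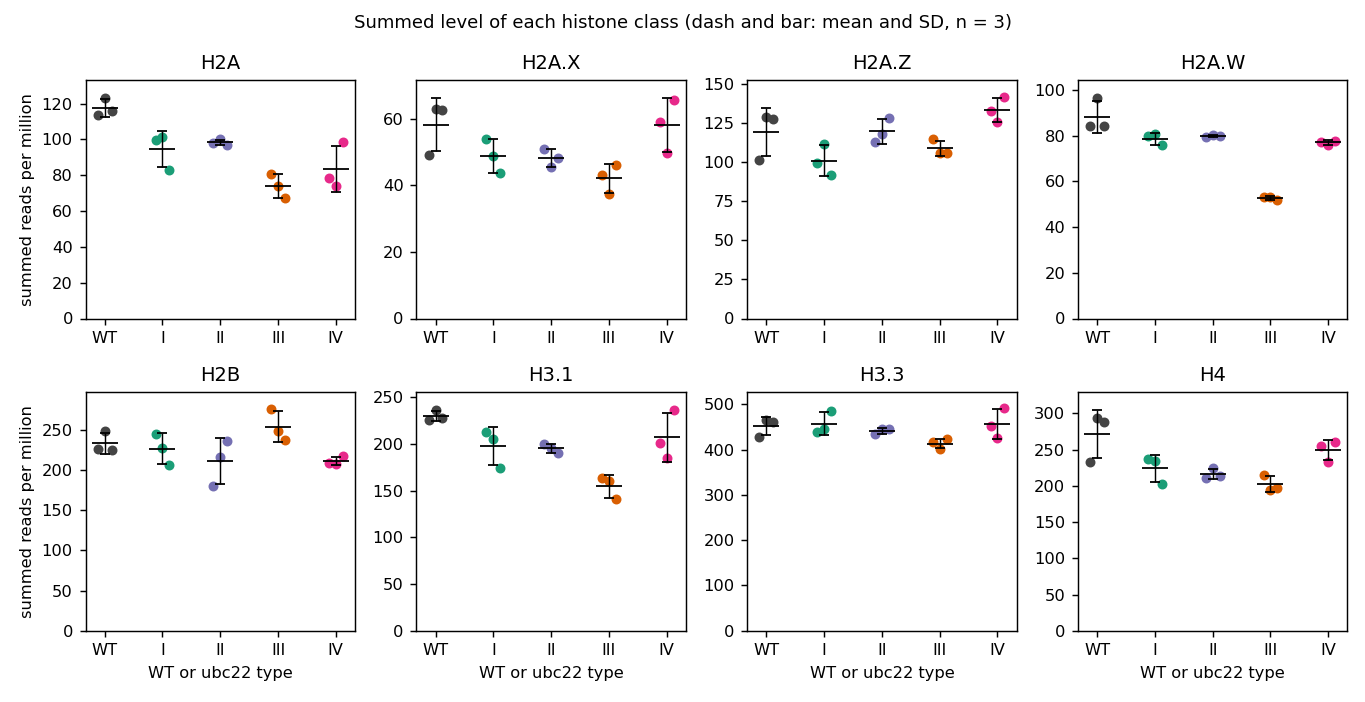
Summed CPM of 8 histone classes in each library (points), with the mean and SD of each group (dash and bar, n = 3) and axes from 0. Type III is lowest for H2A, H2A.W and H3.1 without overlap with WT, and has the highest mean for H2B.

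The make-up of the classes also differed. Shares here are of CPM per kilobase of exon summed over the selected genes, and not of reads. H3.3 gave 55.3% ± 0.705 of H3.1 plus H3.3 in WT and 63.4% ± 2.32 in Type III, with means of 58.2% to 59.6% in the other types. Type I replicate 3, at 63.48%, lay within the Type III range of 61.88% to 66.05%. H2A.Z gave 30.1% ± 1.83 of all H2A in WT, 38.7% ± 0.0603 in Type III and 37.7% ± 1.09 in Type IV. H2A.W went from 23.2% ± 1.23 in WT to 18.4% ± 0.598 in Type III, and canonical H2A from 33.6% ± 1.64 to 26.1% ± 1.83 in Type IV. HTB9 made up 38.1% ± 0.0428 of the selected H2B in WT, 53.3% ± 1.15 in Type III and 44.2% ± 2.55 in Type IV, with means of 34.7% in Type I and 33.3% in Type II. AT3G53730 made up 10.2% ± 0.62 of the selected H4 in WT, 19.0% ± 0.377 in Type III and 14.2% ± 0.75 in Type IV, with means of 11.7% in Type I and 12.3% in Type II.

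Genes with an octamer upstream were mostly lower in Type III. The 9 genes are the H3.1 genes AT5G65360, AT1G09200 and AT5G10400, the H2A genes HTA10 and HTA13, HTA6 (H2A.W), the H4 genes AT1G07660 and AT5G59690, and AT4G40040 (H3.3). Of these 7 were called lower and 0 higher in Type III, with a median of -0.88 and a range of -1.17 to 0.09. The other 27 had 10 lower and 4 higher, with a median of -0.20 and a range of -1.27 to 1.32. Of all loci 23.6% were called lower and 24% higher in Type III. In Type IV 3 of the 9 were lower with a median of -0.23, beside -0.31 for the other 27, and in Type II 2 were lower with a median of -0.31, beside -0.24. The share of all loci called lower was 17% in Type IV and 4.38% in Type II. Exceptions in Type III stood on both sides: AT4G40040 has an octamer and was at 0.09, and AT5G10390 has none and fell by 1.27. Of the 9 carriers, 8 lie outside chromosome 3, and the difference between the sets was not tested.

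**Figure D5:**
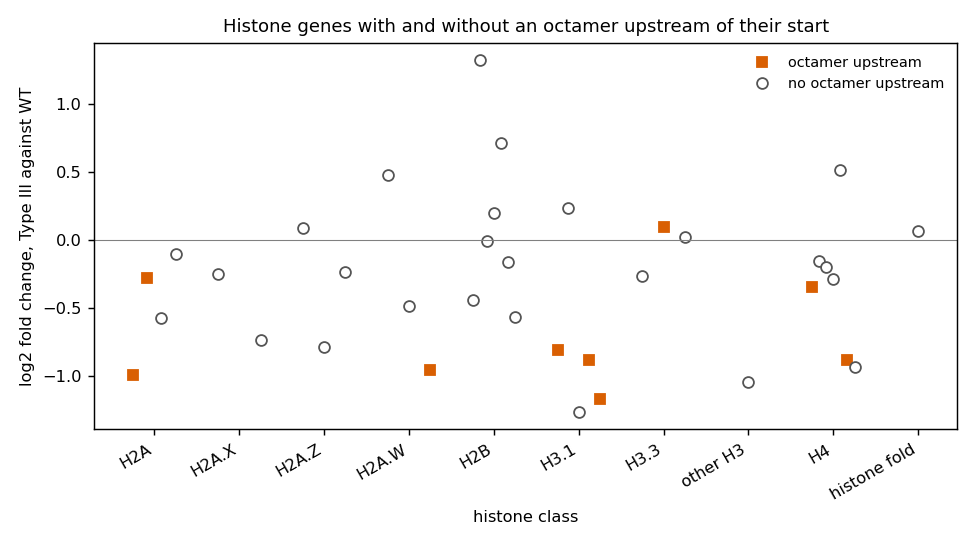
Log2 fold change in Type III against WT of the 36 tested histone genes by class, with genes that hold the octamer in the 250 bases upstream as filled squares and the others as open circles. The squares lie between -1.17 and 0.09, and the open circles between -1.27 and 1.32.

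The types also differed from each other. Type III against Type I, the type that looks like WT, gave 4 histone genes higher and 12 lower (21.3% and 20.3% of all loci), and 2 higher and 14 lower centred per chromosome (16.9% and 18% of all loci). Type IV against Type I gave 3 higher and 5 lower (12.7% and 15.1% of all loci), and 1 higher and 4 lower centred (8.55% and 10.4% of all loci). Scaled by library totals it gave 4 higher and 3 lower, with no share of all loci given for that fit. Type II against Type I gave 1 higher and 2 lower (9.45% and 4.81% of all loci), and limma called 0 when centred (0.995% and 1.07% of all loci), where 8 of 36 had an unadjusted p under 0.05. Type III against Type II gave 5 higher and 13 lower (25.3% and 26.3% of all loci), and Type IV against Type II 5 and 5 (19.5% and 22.3%). Type IV was above Type III in 9 histone genes and below it in 4 (15.2% and 19.4% of all loci). Among the 9 were 4 H3.1 genes, by 0.66 to 0.82, with HTA6 by 0.73, AT5G59970 by 0.61 and AT5G59690 by 0.52. The 4 were AT2G28720 (-1.43), HTB9 (-0.66), HTA13 (-0.30) and AT3G27360 (-0.25). All of these except AT2G28720 lie on chromosome 3, whose loci had a median of -0.37, with 47.5% called lower. The genes named as higher lie on chromosomes 1 and 5, whose loci had medians of 0.18 and 0.19, with 24.4% and 25.6% called higher. Pairs of types without Type I were not fitted centred per chromosome.

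Genes that act with histones were counted from lists of known members. DNA replication genes had 1 of 15 tested higher and 12 lower in Type III (median -0.97) and 0 higher and 11 lower in Type IV (-0.77), where 24% and 23.6% of all loci were called in Type III and 16% and 17% in Type IV. There were 0 of each in Type I and 1 lower in Type II (4.38% of all loci). RNR1, which makes deoxynucleotides, was at 327 normalized reads in Type III and 358 in Type IV against 753 in WT (log2 fold change -1.21 and -1.07, adjusted p = 7.74e-06 and 8.82e-05). PCNA2, the sliding clamp, fell by 1.08 in Type III (adjusted p = 2.85e-06), and ICU2, the catalytic subunit of polymerase alpha, by 0.97 in Type III and 0.77 in Type IV (adjusted p = 6.52e-06 and 0.000161). The exception was CDC6, which loads the replicative helicase, with a rise of 1.95 in Type III (adjusted p = 1.42e-06). Summed, the list gave 335 ± 24.3 CPM in WT (SD, n = 3), 279 ± 37.8 for Type I, 326 ± 24.1 for Type II, 191 ± 26.6 for Type III and 212 ± 31.5 for Type IV.

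Histone chaperones, which carry and load histones, had 1 of 10 higher and 7 lower in Type III (median -0.44), where 24% and 23.6% of all loci were called, and 3 lower in Type IV, where 17% were. FAS1 and FAS2, of the chaperone that loads H3.1 behind the replication fork, fell by 0.79 and 0.76 in Type III (adjusted p = 0.00722 for both), with MSI1, their partner, by 0.50 (adjusted p = 0.000559) and ASF1A by 0.77 (adjusted p = 0.000728). HIRA, which loads H3.3, rose by 0.55 there (adjusted p = 0.00198), and lies on chromosome 3. Of 3 H2A.Z exchange genes PIE1 and ARP6, both also on chromosome 3, rose in Type III by 0.74 and 0.50 (adjusted p = 5.93e-05 and 0.0216), and SWC2 did not pass (0.04).

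Linker histones bind the DNA between nucleosomes, and 3 of their genes were tested against WT. All 3 were higher in Types III and IV (24% and 16% of all loci): H1.1 by 0.44 and 0.73 (adjusted p = 0.00912 and 0.000624), H1.2 by 0.52 and 0.49 (adjusted p = 0.015 and 0.0294) and the stress-induced H1.3 by 1.28 and 2.98 (adjusted p = 0.00201 and 9.68e-06). H1.3 had means of 14.9 normalized reads in WT, 44.2 for Type I, 50.4 for Type II, 38.2 for Type III and 125.5 for Type IV. In Type II H1.3 was higher by 1.67 (adjusted p = 0.00162) and H1.1 lower by 0.44 (adjusted p = 0.0269). In Type I none of the 3 passed. Against Type I 1 of the 3 was higher in Type III and 3 in Type IV (21.3% and 12.7% of all loci).

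Cell cycle regulators were also counted. Of 7 genes for E2F factors and their regulators 4 were lower in Type III (23.6% of all loci), E2FA by 0.75, E2FC by 0.56, DPA by 0.45 and RBR1 by 0.43 (adjusted p = 0.00603, 0.0125, 0.0196 and 0.00215), and in Type IV E2FA by 0.87 and RBR1 by 0.34 (adjusted p = 0.00391 and 0.0141). Of 10 mitotic genes 4 were lower in Type III (23.6% of all loci), led by AUR2 (-0.66, adjusted p = 0.00179). In Type IV the mitotic genes CYCB1;2 (0.40, adjusted p = 0.00771) and KNOLLE (0.37, adjusted p = 0.0134) were higher and CDKB1;2 (-0.70, adjusted p = 0.0125) was lower. Beside these calls and those of E2FA and RBR1, 16% of all loci were called higher and 17% lower in Type IV.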

How the data were processed

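The authors deposited 1 table of normalized signal for 34307 loci in 15 columns, and per the submitters' processing notes STAR 2.4.0j, StringTie 1.0.3, HTSeq 0.6.0, DESeq2 1.12.4 and the TAIR10 genome were used, with no role given. Per the labels, the TruSeq v2 kit does not keep strand. All deposited values are whole multiples of 1 step per column (100% within 1e-06), so whole reads were recovered. The 260 loci with no AGI code held 0.136% of reads. A slip in 2 column names was read through the sample titles. Groups follow the labels.

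The test was that of limma 3.58.1 with a mean-variance trend (in R 4.3.3), on log2(normalized count + 1) in 1 fit of all 15 libraries, over 17595 loci with a mean of at least 10, with Benjamini-Hochberg adjustment over all of them. edgeR 4.0.16, DESeq2 1.42.0 and limma-voom on recovered reads were alternatives. The limma steps were tested on simulated data. Other alternatives changed the scaling (also centred per chromosome on the log2 scale), the pseudocount, the filter, the threshold and the libraries in the fit. Pairs of types without Type I were added after seeing the data. Values in every library are given for up to 6 called genes a direction and comparison with the largest change and no overlap, and for the most abundant gene of each class. The members, classes and lists were chosen with earlier results of these data known. Of 32580 AGI codes 31881, and all 45 histone genes, matched RefSeq's TAIR10.1 annotation, which gave chromosomes, exons and upstream sequence. The precision of each value is limited by 3 libraries a group.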

Additional observations from a re-analysis of the deposited data

Results flagged for a closer look

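The differences between mutant types below passed the limma test of the difference itself (adjusted p under 0.05, log2 values of the first type minus the second). They are all those against Type I and, of the other pairs, the 2 genes called in opposite directions against WT. Each comes from the fit of all 15 libraries.

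Type II differed from Type I in HTA8 (0.67), AT5G10980 (-0.39) and AT5G59970 (-0.41). Of these AT5G10980 alone was called in every fit without 1 library, and none was called when libraries were centred per chromosome.

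Between Type III and Type I, the H3.1 genes AT5G65360 (-0.92), AT5G10390 (-0.91), AT1G09200 (-0.71) and AT5G10400 (-0.66) were lower and AT3G27360 (0.28) was higher, the last turning to lower when centred. The H2A genes HTA6 (-0.88), HTA10 (-0.67) and HTA3 (-0.46) were lower, as were the H4 genes AT5G59970 (-0.83) and AT5G59690 (-0.60), the H2B genes HTB2 (-0.72) and HTB1 (-0.54) and the H3.3 gene AT4G40030 (-0.26). The H2B genes AT2G28720 (1.07) and HTB9 (0.83) and the H4 gene AT3G53730 (0.53) were higher. Centred per chromosome, HTB9 was at 0.35 (adjusted p = 0.0127) and AT3G53730 at 0.06 (adjusted p = 0.702), and the calls of HTA3 and AT4G40030 were lost (adjusted p = 0.121 and 0.174). Both of these were also lost without Type I replicate 1 or 2 or Type III replicate 1 or 2 (highest adjusted p = 0.217 and 0.127).

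Type IV minus Type I was 0.42 for AT5G10980, 0.38 for HTA9 and 0.30 for AT3G53730. It was -0.69 for HTA2, -0.47 for HTB2, -0.46 for AT4G40030, -0.40 for HTB1 and -0.36 for HTA13. The HTB1 libraries of the 2 types overlapped. Centred per chromosome, HTA2 was at -0.29 (adjusted p = 0.137), AT4G40030 at -0.05 (adjusted p = 0.731), HTA9 at 0.30 (adjusted p = 0.0709) and AT3G53730 at 0.19 (adjusted p = 0.211), so these 4 calls were lost. HTB1, HTA9, HTA13 and AT3G53730 each lost the call in 2 to 5 of the 6 fits without 1 library, Type I replicate 1 and Type IV replicate 1 among them.

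The 2 genes called in opposite directions against WT also differed between those types. HTB9 was higher in Type III than in Type II by 1.1 (adjusted p = 7.64e-07), and AT5G10980 was higher in Type IV than in Type II by 0.81 (adjusted p = 8.65e-06). HTB9 lies on chromosome 3, whose loci had a median of 0.55 in that pair, with 63.3% called higher. AT5G10980 lies on chromosome 5, whose loci had a median of 0.17 in its pair, with 27.1% called higher. Neither pair was fitted with libraries centred per chromosome.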

How the results depend on the processing

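Of 1239 re-tests of the 69 called values of single histone genes, 1045 stayed called in the same direction, 192 were no longer called and 2 reversed. Both reversals were AT3G27360 with libraries centred per chromosome, at -0.24 (Type III against WT) and -0.20 (Type III against Type I). The number of called histone genes moved by over 1.5 times as follows. With only the 2 groups in the fit it was 3 for Type II and 8 for Type IV against WT and 5 for Type IV against Type I. At an adjusted p under 0.01 it was 0 (Type II against WT), 6 (Type IV against WT), 1 (Type II against Type I) and 4 (Type IV against Type I). Centred per chromosome it was 0 for Type II against WT and against Type I and 5 for Type IV against Type I, and scaled by library totals it was 9 for Type IV against WT. Leaving out 1 library gave 1 to 11 (Type II) and 6 to 17 (Type IV) against WT, 1 to 4 (Type II against Type I) and 4 to 8 (Type IV against Type I). The cause was not tested.

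Class levels as a percentage of WT also moved. With the deposited scaling they were 81.4 (H2A, Type II), 96.8 (H2A.Z, Type III), 93.4, 87.8, 63.5 and 84.9 (H2A.W, Types I to IV), 88.1 (H2B, Type IV), 82.6 (H3.1, Type II), 95.1 and 97.5 (H3.3, Types II and III) and 79.1 (H4, Type III). Without the most abundant gene of each class they were 87.4 and 74.3 (H2A, Types II and III), 89.7, 56.3 and 78.7 (H2A.X, Types II to IV), 75.6, 83.6, 73.9 and 83.9 (H2A.Z, Types I to IV), 86.1 and 76.2 (H2A.W, Types II and III), 85.7 and 82.6 (H2B, Types III and IV), 47.2 (H3.1, Type III), 92.9 and 84.9 (H3.3, Types II and III) and 84.0, 86.9 and 98.5 (H4, Types II to IV). H2A.Z in Types II and IV and H2B in Type III thereby went from above to below WT. No paired analysis was possible because the labels give the groups no shared replicate numbers.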
